A study of Mus musculus with 6 samples.

Results

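Tuft cells are rare chemosensory cells of the intestinal epithelium. They sense luminal signals through G protein-coupled receptors and the cation channel TRPM5, and they release interleukin 25 and cysteinyl leukotrienes, lipid mediators that act on immune cells. Leukotrienes are made from arachidonic acid by 5-lipoxygenase (Alox5) with the help of its membrane partner FLAP (Alox5ap). The product, leukotriene A4, is then joined to glutathione by leukotriene C4 synthase (Ltc4s) or hydrolysed by Lta4h. The 10 genes described here are Trpm5, Pou2f3, Avil, Dclk1, Gfi1b, Alox5, Alox5ap, Ltc4s, Sh2d6 and Rgs13, chosen by symbol as established markers of tuft cells and their leukotriene genes. They are 10 of 49585 gene identifiers in the count tables, and all 10 had at least 1 count in at least 1 library.

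The libraries came from tumoroids, 3-dimensional cultures in Matrigel of intestinal adenoma cells from C57BL/6 mice. Both genotypes carried the Min allele of Apc (APC min/+) and Villin-Cre, a Cre recombinase driven by the promoter of an intestinal epithelial gene. The wild-type cultures (3 libraries) were IKKa +/+ and the knock-out cultures (3 libraries) IKKa FL/FL, so that Cre could delete Chuk, the gene of the kinase IKKa, in epithelial cells. Both were grown with Noggin, R-spondin, EGF, basic FGF and a ROCK inhibitor, a medium to which no interleukin 4 or 13 was listed as added. The age and sex of the mice were not stated. Replicates are labelled as biological, but whether they were different mice or different cultures of 1 line is not said, so the p-values reflect library-to-library spread alone, and that spread could be technical.

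Total counts were 20749747 to 31875723 per library. Chuk had 101 ± 5.21 CPM in the wild type and 29.4 ± 5.28 in the knock-out (CPM, the library's counts scaled to a common total by TMM, mean ± SD, n = 3 each). All wild-type libraries held Xist counts (23082 to 44250) and none of Ddx3y, Eif2s3y or Kdm5d, whereas the knock-out libraries had 1 to 3 Xist counts and expressed these Y-linked genes, so genotype and sex cannot be told apart in any value below. Mitochondrial genes took 2.15 to 3.46% of counts in the knock-out and 6.18 to 7.58% in the wild type. Knock-out replicate 2 stood apart from the other knock-out libraries, with a chi-square per degree of freedom of 39.7 and 40.2 against 5.86 between those. Of 13759 genes that passed the filter on low counts, 57.4% passed an adjusted p of 0.05 (edgeR quasi-likelihood test, Benjamini-Hochberg adjustment over all genes tested), 30.4% higher and 27.0% lower in the knock-out.

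Promoter sequence is shown for the members with the clearest changes in each direction, Avil and Ltc4s, which were higher in the knock-out, and Trpm5 and Rgs13, which were lower. RefSeq windows (GRCm38.p6, 250 bases before to 50 after a gene's start, in the direction of transcription) were matched by symbol for 8 of the 10 members, and Pou2f3 and Alox5ap had no entry. The windows were chr10:127000459-127000758 on the plus strand for Avil, chr11:50238483-50238782 on the minus strand for Ltc4s, chr7:143094593-143094892 on the minus strand for Trpm5 and chr1:144177323-144177622 on the minus strand for Rgs13. Capitals mark matches to the heptamer ATGCAAA or its reverse complement, the first 7 bases of the octamer ATGCAAAT bound by POU factors.
Avil: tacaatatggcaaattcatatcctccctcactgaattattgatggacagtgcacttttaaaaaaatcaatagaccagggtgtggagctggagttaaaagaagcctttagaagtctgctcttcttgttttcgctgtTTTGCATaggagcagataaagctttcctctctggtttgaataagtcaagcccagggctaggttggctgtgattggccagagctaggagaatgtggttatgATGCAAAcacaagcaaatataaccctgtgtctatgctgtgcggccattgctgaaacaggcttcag
Ltc4s: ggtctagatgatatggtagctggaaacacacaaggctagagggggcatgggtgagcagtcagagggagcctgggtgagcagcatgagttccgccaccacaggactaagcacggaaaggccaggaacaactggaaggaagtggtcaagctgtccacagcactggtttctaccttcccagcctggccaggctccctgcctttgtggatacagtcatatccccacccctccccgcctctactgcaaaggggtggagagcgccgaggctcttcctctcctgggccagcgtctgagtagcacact
Trpm5: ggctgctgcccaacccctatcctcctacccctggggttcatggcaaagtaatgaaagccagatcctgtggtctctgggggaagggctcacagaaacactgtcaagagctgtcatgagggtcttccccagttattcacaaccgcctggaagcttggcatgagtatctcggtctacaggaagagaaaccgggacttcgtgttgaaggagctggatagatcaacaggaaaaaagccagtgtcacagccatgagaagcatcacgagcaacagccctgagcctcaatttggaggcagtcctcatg
Rgs13: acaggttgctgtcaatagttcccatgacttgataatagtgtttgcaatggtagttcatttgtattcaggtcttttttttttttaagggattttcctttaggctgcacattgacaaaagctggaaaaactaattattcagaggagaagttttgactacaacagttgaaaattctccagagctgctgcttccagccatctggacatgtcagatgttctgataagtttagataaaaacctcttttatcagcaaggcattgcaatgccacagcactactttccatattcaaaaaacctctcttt
The full octamer ATGCAAAT was found on neither strand in any of the 9 windows of the 8 matched members, and 1.74% of 32851 RefSeq windows of this length hold it. The heptamer, added after the octamer search, was found only in Avil among these members, on the plus strand beginning 15 bases before the start and on the minus strand beginning 115 bases before it. It is held by 4.63% of all windows. Every octamer match is also a heptamer match, and a match of letters does not show that a factor binds there.

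The members did not move as 1 group. Of 10 members, 7 passed the filter and 3 (Gfi1b, Alox5ap and Sh2d6) had too few counts to be tested. Avil, Ltc4s and Alox5 were higher in the knock-out, Trpm5, Rgs13 and Pou2f3 were lower, and Dclk1 did not pass. The 6 of 7 tested members that were called stand beside 57.4% of all genes tested, and 6 of the 7 had groups that did not overlap, beside 63.1% of all genes tested. Only 3 of the 7 (Avil, Pou2f3 and Ltc4s) reached the filter's level of 0.354 CPM in every library of both genotypes, while 4 (Trpm5, Rgs13, Dclk1 and Alox5) reached it throughout 1 genotype only, so the count of called members is not support for a change of the set. In bulk RNA, fewer tuft cells and less RNA per tuft cell cannot be told apart.

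**Figure D1:**
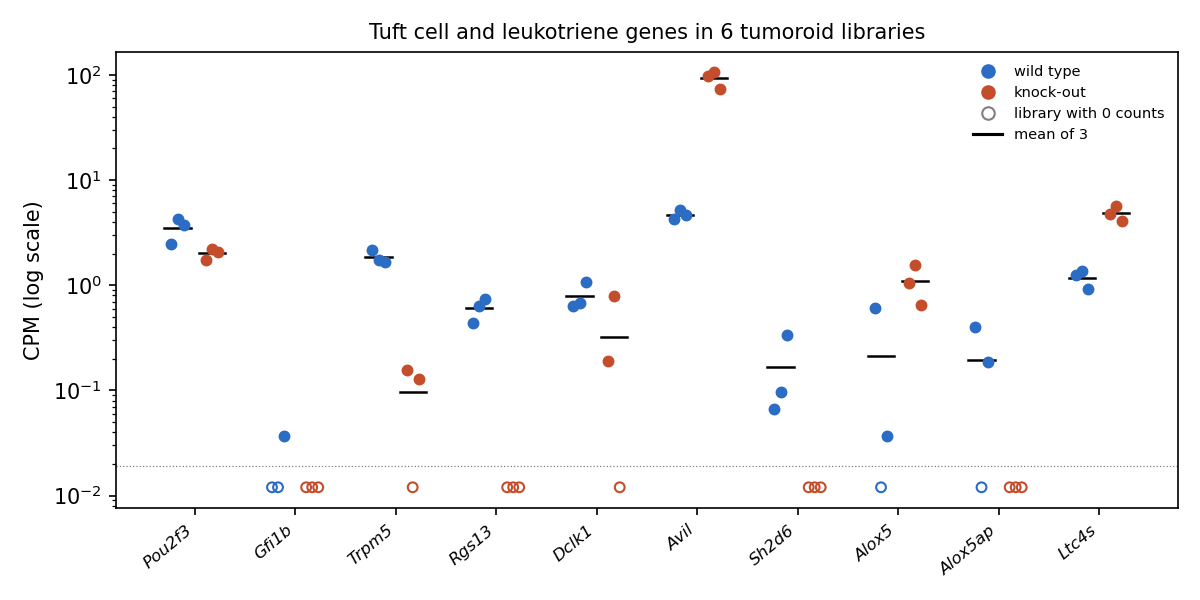
CPM of each member (log axis) in the 3 wild-type and 3 knock-out libraries, with points for libraries, black lines for the mean of 3 and open circles below the dotted line for libraries with 0 counts. Avil lies between 73.8 and 106 CPM in the knock-out against 4.22 to 5.14 in the wild type, whereas Rgs13, Sh2d6, Alox5ap and Gfi1b have no count in any knock-out library.

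The transcription factors of the lineage were low. Pou2f3, the POU-domain factor required to make tuft cells (ENSMUSG00000032015, chr9:43123939-43210369), had 2.48, 4.26 and 3.75 CPM in wild-type replicates 1, 2 and 3 and 1.74, 2.21 and 2.07 in the knock-out. The genotypes did not overlap, and the smallest gap was between wild-type replicate 1 and knock-out replicate 2. It fell 1.71-fold (log2 fold change -0.78, standard error 0.29, edgeR quasi-likelihood test, adjusted p = 0.0366). The call was lost without knock-out replicate 1 (adjusted p = 0.123), without knock-out replicate 3 (0.0782), without wild-type replicate 2 (0.112) or without wild-type replicate 3 (0.119), with limma voom (0.0604) and with the legacy edgeR fit (0.0507). Gfi1b, a zinc-finger repressor of tuft and blood cells, had 1 count in wild-type replicate 3 and 0 counts in the other libraries, so a fold cannot be given.

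Among the signalling genes, Trpm5 and Rgs13 fell to or near 0. Trpm5, the calcium-activated cation channel that depolarises tuft and taste cells (ENSMUSG00000009246, chr7:143069153-143094642), had 65, 36 and 45 counts in the wild-type libraries, or 2.18, 1.74 and 1.67 CPM, and 5, 0 and 4 counts in the knock-out, or 0.158, 0 and 0.129 CPM. The groups lay far apart, and knock-out replicate 2 had no count. The fall was 17.9-fold (log2 fold change -4.17, standard error 0.88, edgeR adjusted p = 2.82e-05). Its exons share 220 of 6398 bases with Tssc4 on the opposite strand, which had 875 to 1698 counts per library.

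Rgs13, a regulator of G protein signalling used as a tuft cell marker (ENSMUSG00000051079, chr1:144138654-144177372), had 13, 13 and 20 wild-type counts and not 1 count in the knock-out. Against 3 counts over the pooled knock-out libraries it was at least 17.7-fold lower (edgeR adjusted p = 0.00161). This bound allows for counting error in the knock-out only and takes the wild-type counts as exact. Sh2d6, an SH2-domain adaptor gene, showed the same arrangement at lower depth, with 2, 2 and 9 counts in the wild type and 0 in the knock-out, at least 5.00-fold lower on the same bound and untested. At this depth, 0 counts do not exclude a level in the knock-out below 0.0336 CPM, the 3-count limit of its pooled libraries.

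The cytoskeletal and kinase markers went different ways. Avil encodes advillin, an actin-severing protein of the gelsolin and villin family found in the microvilli of tuft cells and in sensory neurons (ENSMUSG00000025432, chr10:127000709-127020994). It had 4.22, 5.14 and 4.64 CPM in the wild type and 98.5, 106 and 73.8 CPM in the knock-out, with no overlap. The rise was 20.0-fold (log2 fold change 4.32, standard error 0.19, edgeR adjusted p = 7.07e-10), and it was 18.3-fold to 22.1-fold over 15 alternative settings. Avil shares 165 of its 3398 exon bases with Tsfm on the opposite strand, and Tsfm had 1216 to 1261 counts in the knock-out against 1226 to 1731 in the wild type, while Avil itself had 2284 to 3117 against 106 to 126.

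Dclk1, the doublecortin-like kinase most often used to stain tuft cells, had 0.637, 0.678 and 1.08 CPM in the wild type and 0.19, 0.787 and 0 in the knock-out. Knock-out replicate 2, at 21 counts, lay within the wild-type range, while the other knock-out libraries had 6 and 0. The log2 fold change was -1.39 with a 95% interval of -3.09 to 0.30 and did not pass (edgeR adjusted p = 0.127). Without knock-out replicate 2 it was 8.18-fold lower and passed (edgeR adjusted p = 0.00794), and with limma voom it was 6.02-fold lower and did not (adjusted p = 0.0529). Without knock-out replicate 3 it was 1.72-fold lower instead of 2.62-fold (edgeR adjusted p = 0.363).

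The 3 leukotriene members differed in direction as well. Alox5, the gene of 5-lipoxygenase (ENSMUSG00000025701, chr6:116410077-116461178), had 18, 0 and 1 counts in wild-type replicates 1, 2 and 3 and 33, 42 and 20 in the knock-out, or 0.603, 0 and 0.0372 against 1.04, 1.57 and 0.646 CPM. Wild-type replicate 1 came close to knock-out replicate 3, although the groups did not overlap. The rise was 4.29-fold (log2 fold change 2.10, standard error 0.87, edgeR adjusted p = 0.0306). It was 41.8-fold without wild-type replicate 1, and the call was lost without knock-out replicate 1 (adjusted p = 0.0597), knock-out replicate 2 (0.0665), wild-type replicate 2 (0.0909) or wild-type replicate 3 (0.123), and with the legacy edgeR fit (0.0595).

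Alox5ap, the gene of FLAP, which presents arachidonic acid to 5-lipoxygenase (ENSMUSG00000060063, chr5:149264767-149288153), had 12, 0 and 5 counts in wild-type replicates 1, 2 and 3, and no knock-out library had any. Wild-type replicate 2 overlapped the knock-out at 0. Over the pooled libraries it was at least 6.54-fold lower in the knock-out on the bound used for Rgs13, and it was not tested under the filter. Alox5 and Alox5ap were both counted in wild-type replicates 1 and 3, whereas wild-type replicate 2 had neither and the knock-out libraries had Alox5 without Alox5ap.

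Ltc4s, which makes leukotriene C4 (ENSMUSG00000020377, chr11:50236461-50238616), had 1.24, 1.36 and 0.929 CPM in the wild type and 4.74, 5.69 and 4.07 CPM in the knock-out. All knock-out libraries lay above the wild type by more than the spread within either group. The rise was 4.12-fold (log2 fold change 2.04, standard error 0.32, edgeR adjusted p = 7.29e-05) and was called in all 15 alternatives. Its exons share 268 of 1014 bases with the antisense gene Gm26542, which had 43 to 52 counts in the knock-out and 34 to 84 in the wild type against 126 to 152 and 25 to 37 for Ltc4s. The strand setting of the counting is not given in the sources used here, so reads in the shared bases could belong to either gene.

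On a scale of CPM per kb of annotated exon, which allows genes to be compared, the order of wild-type means was Avil at 1.37 ± 0.13, Ltc4s at 1.16 ± 0.22, Pou2f3 at 1.13 ± 0.30, Rgs13 at 0.364 ± 0.094 and Trpm5 at 0.291 ± 0.043 (SD, n = 3). The first 3 did not differ from one another beyond their spread, nor did Rgs13 and Trpm5. Below them came Alox5ap at 0.138 ± 0.142, Sh2d6 at 0.0983 ± 0.0867, Dclk1 at 0.0521 ± 0.0159, Alox5 at 0.0520 ± 0.0823 and Gfi1b at 0.00677 ± 0.0117, each within the spread of its neighbour. In the knock-out, Avil at 27.3 ± 4.96 and Ltc4s at 4.77 ± 0.81 stood clear of the others. Pou2f3 at 0.649 ± 0.078 and Alox5 at 0.265 ± 0.113 followed, and Dclk1 at 0.0213 ± 0.0268 and Trpm5 at 0.0150 ± 0.0131 overlapped. In each genotype 3 members exceeded 1 CPM in every library, Trpm5, Pou2f3 and Avil in the wild type and Pou2f3, Avil and Ltc4s in the knock-out.

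Other genes of the leukotriene pathway covered a wide range of levels. Of 27, 5 had 0 counts in all libraries and 15 were tested, and 5 rose, 7 fell and 3 did not pass. Their median log2 fold change was -0.02, beside 0.0022 over all genes tested. Of all genes tested, 57.4% were called, 30.4% higher and 27.0% lower. Pla2g4a, the cytosolic phospholipase that frees arachidonic acid, had 19.9, 17.5 and 21.3 CPM in the wild type and 156, 126 and 165 in the knock-out, a 7.59-fold rise (edgeR adjusted p = 1.19e-09). Pla2g5, a secreted phospholipase, went the other way, with 123, 105 and 168 counts in the wild type and 0 in every knock-out library, at least 152-fold lower over the pooled libraries (edgeR adjusted p = 4.14e-06). Phospholipases were thus called in both directions. Cotl1, an actin-binding protein that also binds 5-lipoxygenase, had 156, 177 and 193 CPM in the wild type and 17.3, 16.3 and 11.3 in the knock-out, an 11.7-fold fall (adjusted p = 9.41e-10).

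Downstream of leukotriene A4, genes of the glutathione branch went both ways. Mgst2, a microsomal enzyme that can also make leukotriene C4, rose from 14.1 ± 0.795 CPM in the wild type to 56.6 ± 6.38 in the knock-out (edgeR adjusted p = 2.6e-08). Its relative Mgst3 had 128, 136 and 140 CPM in the wild type and 73.8, 98.4 and 76.6 in the knock-out, a 1.63-fold fall (edgeR adjusted p = 0.000131). Abcc1, a transporter that exports leukotriene C4 (chosen after its values were seen), rose 1.64-fold to 307 ± 21.5 CPM (edgeR adjusted p = 8.27e-06). Lta4h, the hydrolase that makes leukotriene B4, had 312, 283 and 320 CPM in the wild type and 120, 133 and 117 in the knock-out, a 2.47-fold fall (edgeR adjusted p = 4.2e-08). Ptgr1, which breaks leukotriene B4 down, fell 7.38-fold from 471 ± 9.63 to 63.9 ± 8.14 CPM (edgeR adjusted p = 1.57e-10). In each of these 5 genes, as in Ltc4s, the groups did not overlap, which was so for 63.1% of all genes tested. The receptors Cysltr2 and Oxgr1 had 0 counts in all libraries, and Cysltr1, Ltb4r1 and Ltb4r2 had at most 13 counts in any.

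**Figure D2:**
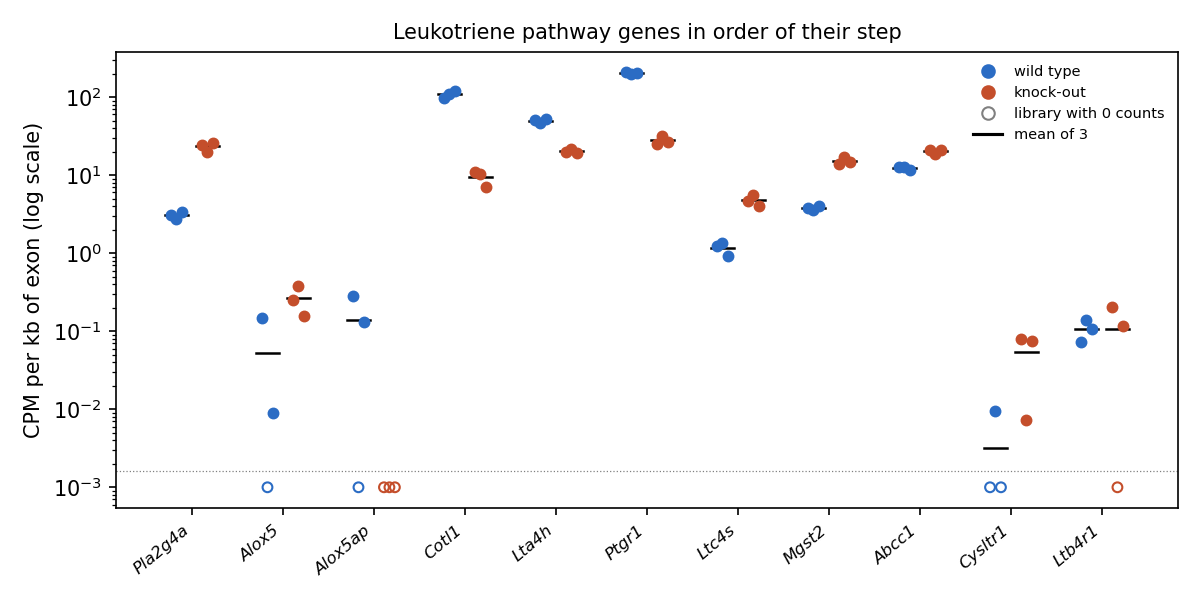
CPM per kb of exon (log axis) of leukotriene pathway genes in the 6 libraries, from the release of arachidonic acid on the left to receptors on the right; points are libraries, black lines the mean of 3 and open circles libraries with 0 counts. Pla2g4a, Ltc4s, Mgst2 and Abcc1 are higher and Cotl1, Lta4h and Ptgr1 lower in all knock-out libraries, while Alox5 and Alox5ap lie below 1 CPM per kb throughout.

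Relatives of these enzymes were examined next. All 3 tested of 6 other lipoxygenases rose, each under 3 CPM in every library: Alox15 had 0.0335, 0.145 and 0.0743 CPM in the wild type and 0.948, 2.02 and 0.517 in the knock-out (edgeR adjusted p = 0.000897), and Alox12 had 2, 0 and 1 counts in the wild type and 21, 23 and 15 in the knock-out. Without knock-out replicate 2 the rise of Alox15 was 8.85-fold instead of 13.7-fold. Of all genes tested, 30.4% were called higher and 27.0% lower. Alox15, Alox12 and Aloxe3 reached the filter's level of 0.354 CPM throughout the knock-out only. Their shared direction was therefore partly set by the filter and is not support for a change of the family. The 3 untested lipoxygenases had more counts in the wild type: Alox12e had 2, 7 and 14 counts there and 0 in the knock-out, Alox8 had 19, 0 and 5 against 0, 2 and 2, and Alox12b had 1 count in all. Ltc4s and Alox5ap belong to the MAPEG family of small membrane enzymes, and of its 4 other genes Mgst1, Mgst2 and Ptges rose and Mgst3 fell. Ptges, the prostaglandin E synthase, had at most 0.101 CPM in the wild type and 0.505 to 0.861 in the knock-out. It too passed the filter only through the knock-out.

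Markers of white blood cells, which also use Alox5, Alox5ap and Ltc4s, were examined beside these genes. Of 20 markers, 7 had 0 counts in all libraries (Adgre1, Tyrobp, Cd3e, Ms4a1, Cpa3, Fcer1a and Gata1), and Spi1 had 1 count in all. The summed level of the list was 31.4 to 33.5 CPM in the knock-out and 8.14 to 15.1 in the wild type. Cd68 (mean 11.9 CPM), Csf1r (10.9) and S100a9 (9.19) made up most of the knock-out sum, so it does not stand for the whole list. Kit went the other way, with 5.09 ± 2.37 CPM in the wild type and 1 count over the pooled knock-out libraries. Of 5 tested, Cd68, Csf1r, S100a9 and Ptprc rose and Kit fell, beside 30.4% higher and 27.0% lower among all genes tested. Only Cd68 reached the filter's level of 0.354 CPM in every library of both genotypes. Csf1r, S100a9 and Ptprc reached it throughout the knock-out only, and Kit throughout the wild type only. The count of called markers is thus not support for a change of the list. Among the untested, the myeloid genes Itgam and Lyz2 had fewer counts in the knock-out, with 5, 15 and 26 in the wild type against 5, 1 and 2 for Itgam and 15, 0 and 4 against 0 for Lyz2. Csf1r had 10.5 to 11.2 CPM in the knock-out and 0 to 1.41 in the wild type, S100a9 had 7.39 to 10.2 and 0 to 0.149, and the pan-leukocyte gene Ptprc had 10 to 17 counts per library there and 0, 0 and 2 in the wild type. The part of these markers in the rise of Alox5 and Ltc4s was not tested.

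Further tuft cell markers also went both ways. Of 48 in the tables, 23 were tested, and 8 rose, 8 fell and 7 did not pass. The median log2 fold change of the 23 was 0.28. Of all genes tested, 30.4% were called higher and 27.0% lower, so calls in both directions are not particular to these markers. Among those that rose was Ptgs1, the cyclooxygenase that marks tuft cells in the gut, with 12.6, 11.9 and 9.85 CPM in the wild type and 219, 252 and 212 in the knock-out, 19.9-fold higher (edgeR adjusted p = 3.43e-11). Itpr2, an inositol trisphosphate receptor, rose 11.6-fold to 125 ± 11.8 CPM, and Plcg2, a phospholipase C, 4.22-fold to 64.6 ± 3.21 CPM. Among those that fell was Ildr1, an immunoglobulin-domain receptor of tricellular junctions, with 62.3, 75.7 and 67.4 CPM in the wild type and 3.38, 2.28 and 2.29 in the knock-out, 25.5-fold lower (edgeR adjusted p = 2.09e-10). Atp2a3, a calcium pump, fell 16.7-fold from 14.9 ± 3.54 to 0.890 ± 0.300 CPM. These 5 had the smallest adjusted p of the list. At lower counts calls also went both ways. Lrmp had 15, 12 and 33 counts in the wild type and 0, 0 and 2 in the knock-out. Siglecf had 5, 3 and 4 counts in the wild type and 31, 20 and 42 in the knock-out (both named after their values were seen).

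The chemosensory chain upstream of Trpm5 was thinly counted. Gnat3, the taste G protein alpha subunit, had 0, 4 and 4 counts in the wild type and 0 in the knock-out. Plcb2, the phospholipase of that chain, had 0, 26 and 4 counts in the wild type and 0 in the knock-out, so 1 library held most of its counts. Gng13 had at most 5 counts in any library. Itpr3, the calcium release channel of the chain and also abundant in other epithelia, rose 1.39-fold from 256 ± 24.1 to 356 ± 40.8 CPM (edgeR adjusted p = 0.0013). Among receptors, signals and other products, Sucnr1, the succinate receptor, had 18, 5 and 3 counts in the knock-out and 0, 0 and 2 in the wild type, Il17rb 2, 0 and 0 against 7, 2 and 3, and Hpgds, the prostaglandin D synthase, 16, 9 and 9 against 4, 3 and 6. Il25 had 3 counts in knock-out replicate 3 alone, and Chat had none in any library. None of these 5 was tested under the filter.

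**Figure D3:**
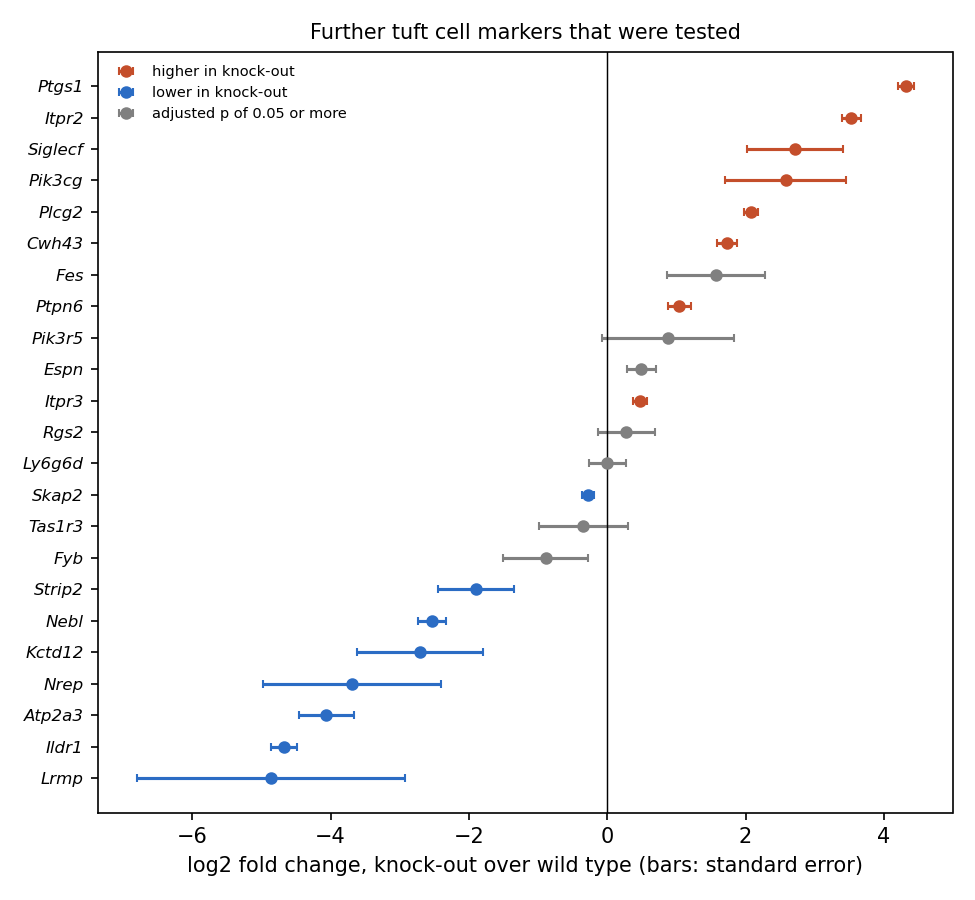
Log2 fold change, knock-out over wild type, of the 23 further tuft cell markers that were tested, with bars for the standard error and colours for the edgeR call. Markers run from Lrmp and Ildr1 on the lower side to Itpr2 and Ptgs1 on the higher side, with 8 called in each direction.

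Regulators of secretory and tuft cell fate went both ways. Of 20 in the tables, 14 were tested, and 6 fell, 3 rose and 5 did not pass, with a median log2 fold change of -0.05. The 9 of 14 called stand near the 57.4% of all genes tested. 1810046K07Rik, the gene of a coactivator of POU2F3, had 26, 38 and 16 counts in the wild type and 4, 1 and 0 in the knock-out, a 17.2-fold fall (edgeR adjusted p = 0.000677), and 47.4-fold without knock-out replicate 1. Atoh1, the factor of secretory progenitors, had 176, 190 and 153 counts in the wild type and 0 in every knock-out library, at least 200-fold lower over the pooled libraries. Spib, an Ets factor of tuft and M cells, had 0, 15 and 10 counts in the wild type and 0 in the knock-out and was not tested. Ascl2, a crypt stem cell factor, fell 13.6-fold from 70.8 ± 6.77 to 5.25 ± 1.57 CPM (edgeR adjusted p = 2.53e-09).

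Notch1 fell 1.79-fold (edgeR adjusted p = 1.66e-05), and its target Hes1 rose 1.47-fold to 58.5 ± 2.26 CPM (edgeR adjusted p = 0.000254). RNA of Il4ra, Il13ra1 and Stat6, genes of the pathway by which interleukins 4 and 13 expand tuft cells, was counted in both genotypes. The activity of that pathway was not tested. Il4ra had 45.4, 47.3 and 44.4 CPM in the wild type and 87.6, 83.6 and 86.0 in the knock-out, a 1.88-fold rise (edgeR adjusted p = 1.11e-06). Il13ra1, at 52.8 ± 0.41 against 52.7 ± 1.41 CPM, and Stat6, at 166 ± 7.93 against 154 ± 4.36 CPM (wild type against knock-out, named after their values were seen), did not pass, and the 95% intervals of the log2 difference were -0.18 to 0.18 for Il13ra1 and -0.27 to 0.05 for Stat6.

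**Figure D4:**
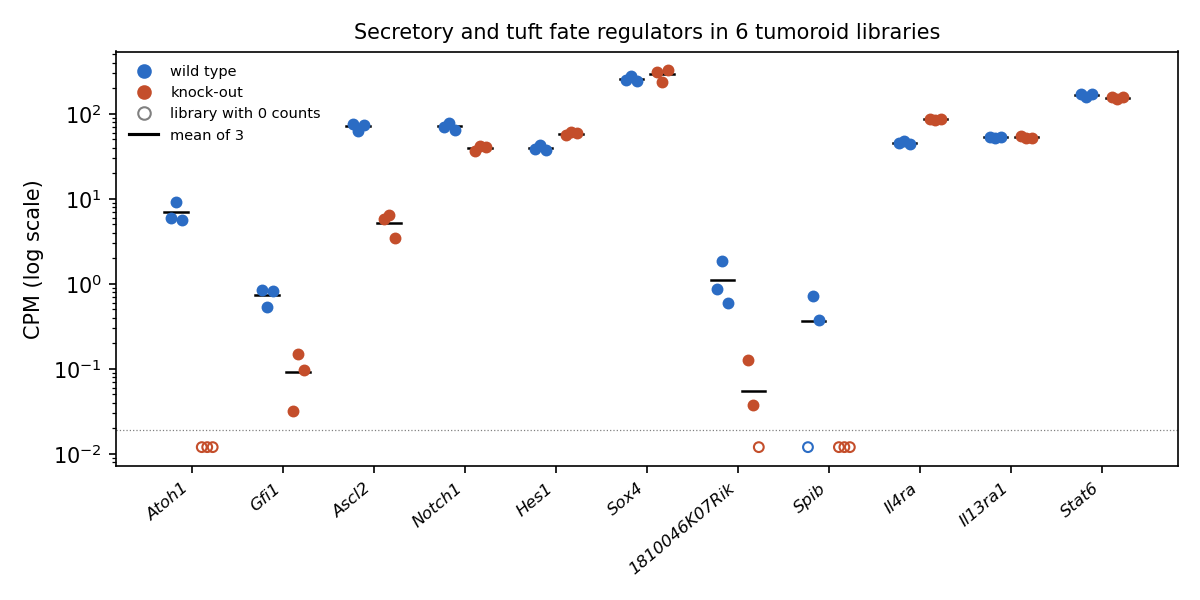
CPM (log axis) of regulators of secretory and tuft cell fate in the 3 wild-type and 3 knock-out libraries; points are libraries, black lines the mean of 3 and open circles libraries with 0 counts. Atoh1 has 5.69 to 9.21 CPM in the wild type and no count in the knock-out, and Il4ra is higher in every knock-out library.

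Markers of other cell types gave the setting of these values. Beside the counts below, 30.4% of all genes tested were called higher and 27.0% lower in the knock-out. Of 8 intestinal epithelium markers, Epcam had 894 to 951 CPM in the wild type and 404 to 427 in the knock-out, and Cdx2, an intestinal identity factor, 183 to 204 and 19.2 to 21.8. In all 4 of the 8 fell (Epcam, Cdx1, Cdx2 and Vil1), the keratin genes Krt8, Krt18 and Krt19 rose 1.35-fold, 1.32-fold and 2.69-fold, and Cdh1 did not pass. The summed level of these markers was 10107 to 11851 CPM in the knock-out and 7680 to 8322 in the wild type. Only the keratin genes among the 8 were called higher, so the higher sum does not stand for the whole list. Of 10 neuron and neuroendocrine markers, 4 were tested, 3 fell and 0 rose, and the summed level was 0.775 to 0.936 CPM in the knock-out and 8.44 to 25.8 in the wild type. The 3 that fell were the endocrine genes Chgb, Neurog3 and Chga. Of the neuronal genes, Stmn2 and Elavl4 had 0 counts in all libraries and Tubb3 did not pass (edgeR adjusted p = 0.605). The part of these markers in the values of Avil and Dclk1 was not tested. Of 10 stromal and endothelial markers, 4 had 0 counts in all libraries, and their summed level was 0.807 to 1.11 CPM in the knock-out and 9.59 to 18.5 in the wild type. Acta2 made up most of the wild-type sum, at 9.14 to 17.9 CPM, and fell, whereas Col1a1, the only other one tested, rose from 0, 0 and 2 counts in the wild type to 24, 21 and 14 in the knock-out (edgeR adjusted p = 0.00215). Col1a1 passed the filter only through the knock-out.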

How the data were processed

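RNA of 3 knock-out and 3 wild-type tumoroid libraries was sequenced after polyA selection with a stranded kit, per the labels' protocols. Reads were aligned with STAR to GRCm38, per the submitters' processing notes. The counting program, strand setting and annotation release were not given in the sources used here. Raw counts were deposited by the authors, 1 whole number for each Ensembl identifier and library. Symbols, positions and exon lengths came from GENCODE M21 (GRCm38), which named 49326 of 49585 identifiers.

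Counts were tested with the quasi-likelihood test of edgeR 4.0.16 (R 4.3.3, TMM scaling, filterByExpr with a minimum count of 10 and a minimum total of 15, genotype as the only term), with Benjamini-Hochberg adjustment over 13759 genes and a threshold of 0.05. The quasi-likelihood fit was run with its legacy option off, whereas this version of edgeR has it on by default. A gene near 0 in 1 genotype could pass the filter only through the other, so the direction of its call was partly set by the filter. CPM are relative to TMM-scaled library size. Standard errors came from the working negative binomial weights and the posterior quasi-likelihood dispersion. A fold against a genotype without counts was computed as a lower bound, taking 3 counts for that genotype's libraries together. The counts of the other genotype were taken as exact. The steps were also run on simulated data in which 200 genes were changed, far fewer than were called here. Scaling and error control under so wide a change were therefore not tested. Named were all 10 members, Chuk, up to 5 genes per list with the smallest adjusted p and fixed pathway partners, and others were named after their values were seen. Members and lists were chosen with earlier results of these data known. Alternatives used DESeq2 1.42.0 and limma 3.58.1, other scalings and filters, and each library left out.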

Additional observations from a re-analysis of the deposited data

How the results depend on the processing

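Over 15 alternatives, 4 to 7 of the 10 members and 7077 to 8899 genes were called. Direction was compared only for the members, Chuk and the list genes fixed by the naming rule, and no called value among these changed direction. The calls of Avil, Trpm5, Ltc4s and Rgs13 were kept in every alternative in which they were tested, while those of Pou2f3 and Alox5 were each kept in 9, of 15 and 14 respectively. Without any 1 library, 4 to 6 members were called. Without a filter on low counts, where 36.5% of 23335 genes were called, Alox5ap was called lower (adjusted p = 0.033) and Sh2d6 was not (adjusted p = 0.0707). With a filter of 1 CPM in 3 libraries, 4 members were called, because fewer were tested. With limma voom the rise of Alox5 was 10.4-fold. With the replicate block 6 members, 65 list genes and 7432 of all genes were called. Correlations of the deviations of same-numbered libraries were 0.11, -0.11 and -0.19, and those of unlike-numbered libraries ran from -0.18 to 0.27. With 3 libraries per genotype these values cannot decide whether same-numbered libraries shared a batch. The legacy edgeR fit, the default of this edgeR version, was added as an alternative after seeing the data. It called 4 members, without Pou2f3 and Alox5. Members at 0 to 20 counts are limited by depth.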

Other observations

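Relatives of 4 members were not described above. Of the gelsolin and villin family, to which Avil belongs, Vill rose 8.90-fold from 16.8 ± 0.939 CPM, Capg 7.62-fold to 282 ± 23.2 CPM and Gsn 3.08-fold to 317 ± 16.2 CPM, whereas Vil1, the brush border villin, fell 1.85-fold from 428 ± 16.1 to 231 ± 16.2 CPM (edgeR adjusted p = 2.35e-10, 4.73e-10, 1.09e-07 and 8.46e-07). In the same family Flii rose only 1.17-fold (edgeR adjusted p = 0.0173) and Svil did not pass (edgeR adjusted p = 0.545). Scin, untested, had 4, 1 and 24 counts in the knock-out and 0, 3 and 0 in the wild type. Dclk2, a relative of Dclk1, fell 3.56-fold from 2.55 ± 1.26 CPM (edgeR adjusted p = 0.0039), and Dcx and Dclk3 had no count. Of 7 channels related to Trpm5, 4 were tested, and 2 fell, 1 rose and 1 did not pass. Among all genes tested, 27.0% fell and 30.4% rose. Trpm6, a magnesium channel, had 11.6, 10.9 and 11.1 CPM in the wild type and 0.979, 0.562 and 0.646 in the knock-out, a 15.1-fold fall (edgeR adjusted p = 5.65e-08). Trpm4, a relative also gated by calcium, fell from 71.0 to 78.3 CPM in the wild type to 56.0 to 69.7 in the knock-out (edgeR adjusted p = 0.0374), a call lost with the replicate block (0.0694) and without any 1 library other than knock-out replicate 2 (0.0573 to 0.173). Trpm1 had 0, 0 and 2 counts in the wild type and 12, 10 and 11 in the knock-out (edgeR adjusted p = 0.0124, and 0.0559 without wild-type replicate 1), and Trpm7 did not pass (edgeR adjusted p = 0.72). Trpm1 passed the filter only through the knock-out. Of the small regulators related to Rgs13, Rgs2 and Rgs3 were tested and neither passed (edgeR adjusted p = 0.592 and 0.0611). Rgs2 had 17 to 44 counts per library, and Rgs3 passed as lower with upper-quartile scaling, without the filter, with the DESeq2 Wald test, without knock-out replicate 3 and without wild-type replicate 1.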
